A study of Drosophila melanogaster with 4 samples.

Results

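The genes described here are so, eya, dac and Optix, the eye selector genes of the Six-family, Eya and Dac groups, together with gl, the gene that is mutated in the study. They were taken by gene name and matched to their FlyBase identifiers, which gave 5 genes of the 14885 in the count tables: so (FBgn0003460), eya (FBgn0000320), dac (FBgn0005677), Optix (FBgn0025360) and gl (FBgn0004618). RNA was sequenced from eye-antennal imaginal discs, the larval epithelium that gives rise to the adult eye and antenna, dissected from wandering larvae of the third instar. The wild-type group has 2 libraries from different strains, Canton S and RAL-208, which the submitters count as biological replicates. The glass mutant group has 2 libraries of gl[60j], which they count as technical replicates, so that the mutant stands for 1 sample. The sources used here do not give the lesion of the allele, its genetic background or the number of larvae, and the genotype cannot be told apart from the background of the stock. With wild types of different strains and a single mutant sample, p-values measure the spread between these strains.

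Eye identity in the fly depends on a network of nuclear proteins called the retinal determination network. Pax proteins such as Eyeless act at its top, and So, a Six-family homeodomain protein, binds DNA together with Eya, a transcriptional coactivator and phosphatase. Dac, a nuclear protein related to the Ski and Sno proteins, acts in the same network, and Optix is another Six-family protein needed at and ahead of the morphogenetic furrow, the front where eye cells begin to differentiate. Glass is a zinc finger transcription factor of the differentiating cells behind the furrow, and the eye enhancer of gl is a known target of So.

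Gene reads per library ranged from 11292175 to 27044633. The eye-neuron markers elav, scrt, ato, sens, ro, lz and sev and the antennal marker Dll were read in every library. Over these 7 eye markers the median log2 fold change of mutant against wild type was -0.44, with 2 above 0 (ro and sens) and 5 below. For 5 markers of cone and pigment cells the median was -1.55. Over 7 antennal markers the median was -0.20, with 3 above 0 and 4 below. Some genes of these lists, elav and scrt among them, also mark the central nervous system, and the part of that tissue in these medians was not tested. Markers of other tissues were present too. The summed level of 16 brain and nerve cord markers, led by brp and vvl, was 478 CPM in Canton S and 588 in RAL-208 against 218 and 214 in the mutant. The fitted log2 fold change was below 0 for 16 of the 16, where 4508 of the 9059 tested genes lay below 0. The median was -2.60 against 0.0014 over all genes tested, but dpn (-0.020, SE 0.14) and mira (-0.064, SE 0.16) were close to 0. CPM is the counts-per-million value, relative to all gene reads of a library. Fat body markers, led by Fbp1 and Lsp1gamma, summed to 19789 CPM (Canton S) and 10497 CPM (RAL-208), with 2798 and 2722 CPM for the mutant libraries. Their median log2 fold change was -3.36 over 6 genes. The fit of 4 libraries described further on called 3 of them lower, where it called 11.3% of all genes. The other 3, Fbp1 among them, had mutant values between those of the strains. Fbp1 had 7835 CPM in Canton S and 56.8 in RAL-208, against 1894 and 1840 CPM for the mutant libraries. Several of the smaller lists held genes of opposite sign. The glial list had 2 of 4 fitted values above 0, with Gli (0.55) and repo (0.43) above and moody (-0.45) and gcm (-1.08) below. The ring gland list had sad at 0.57, dib at -0.16 and Akh at -6.82, with 26.0 and 18.8 CPM of Akh for the wild types and 0.354 and 0.111 CPM for the mutant libraries. In trachea serp had 0.60 and trh -2.33, and in muscle 1 of 3 genes lay above 0, while Act57B had -0.33 and Mlc1 -0.83. For other discs nub had -2.44 and vg -2.32. For haemocytes 4 of 4 genes lay below 0, with Hml at -0.53 (SE 0.65) and Pxn at -0.69 (SE 0.41). Hml had 149 CPM in Canton S and 395 in RAL-208 against 187 and 175 CPM for the mutant libraries, so the groups overlap. The largest summed level among these smaller lists was 696 CPM (haemocytes in RAL-208), and no matched marker of another tissue was without reads in any library.

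The first value is that of gl itself. Canton S gave 299 CPM and RAL-208 gave 235 CPM, while the mutant libraries gave 105 and 108 CPM. Both mutant libraries lie below both wild types (the higher mutant value differs by -54.2% from the lower wild-type value), while the transcript stayed among the better-read genes: 76.0% and 77.1% of the tested genes had lower CPM in the mutant libraries, against 92.6% and 89.7% in the wild types. The mean was 2.51-fold lower in the mutant, and the fitted log2 fold change was -1.25 (SE 0.21, 95% interval -1.86 to -0.63), with an adjusted p of 0.209 in edgeR's quasi-likelihood test on summed mutant libraries. The counts cover the whole gene, so they do not show which part of the transcript was read. In bulk tissue, fewer cells of a type and less RNA per cell cannot be told apart, here or for the genes below.

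Among the Six-family genes, so stood at 139 CPM for Canton S and 118 CPM for RAL-208, with 114 and 108 CPM for the mutant libraries. The mutant values are the lowest, but the first differs by only -3.43% from RAL-208, and the counting intervals of these libraries overlap (112 to 124 CPM in RAL-208, 108 to 120 in the first mutant library). The fitted log2 fold change of so was -0.16 (SE 0.16, 95% interval -0.62 to 0.31, adjusted p 0.686 in edgeR). That interval spans a fold from 0.650 to 1.24. Without Canton S the log2 value was -0.026 and without RAL-208 it was -0.28.

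Optix lay on the other side. Canton S had 59.5 CPM and RAL-208 had 63.8 CPM, below 81.6 and 75.3 CPM for the mutant libraries. Both mutant libraries were higher than both wild types, by at least 18.0% of the higher wild type, and the wild types differed by less than their counting error (ratio of Canton S to RAL-208 0.933, exact 95% interval 0.841 to 1.03). The mean was 1.27-fold higher in the mutant, with a fitted log2 fold change of 0.40 (SE 0.11, 95% interval 0.071 to 0.72) and an adjusted p of 0.257 in edgeR. A further Six-family gene of the fly, Six4, which serves mesoderm and gonad, had 1, 4, 2 and 1 reads in the libraries and was not tested.

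The coactivator gene eya reached 363 CPM for Canton S and 314 CPM for RAL-208, and 372 and 369 CPM for the mutant libraries. Canton S and the mutant were close, RAL-208 was lower, and the second mutant library exceeded Canton S by only 1.76%. The fitted log2 fold change was 0.20 (SE 0.15, 95% interval -0.23 to 0.63, adjusted p 0.572 in edgeR). Without RAL-208 it was 0.095 and without Canton S it was 0.32, so its size depends on the wild-type strain.

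The Ski-related gene dac had 363 CPM for Canton S, 340.3 CPM for RAL-208 and, for the mutant libraries, 417 and 434 CPM. Both mutant libraries exceeded both wild types, by at least 14.9% of the higher wild type. The mean was 1.21-fold higher in the mutant and the fitted log2 fold change 0.36 (SE 0.12, 95% interval 0.021 to 0.70), with an adjusted p of 0.285 in edgeR. The brain and nerve cord marker sum, lower in the mutant, stands beside these values, since so, eya, dac and Optix are also used in the larval brain, and its part in them was not tested.

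**Figure D1:**
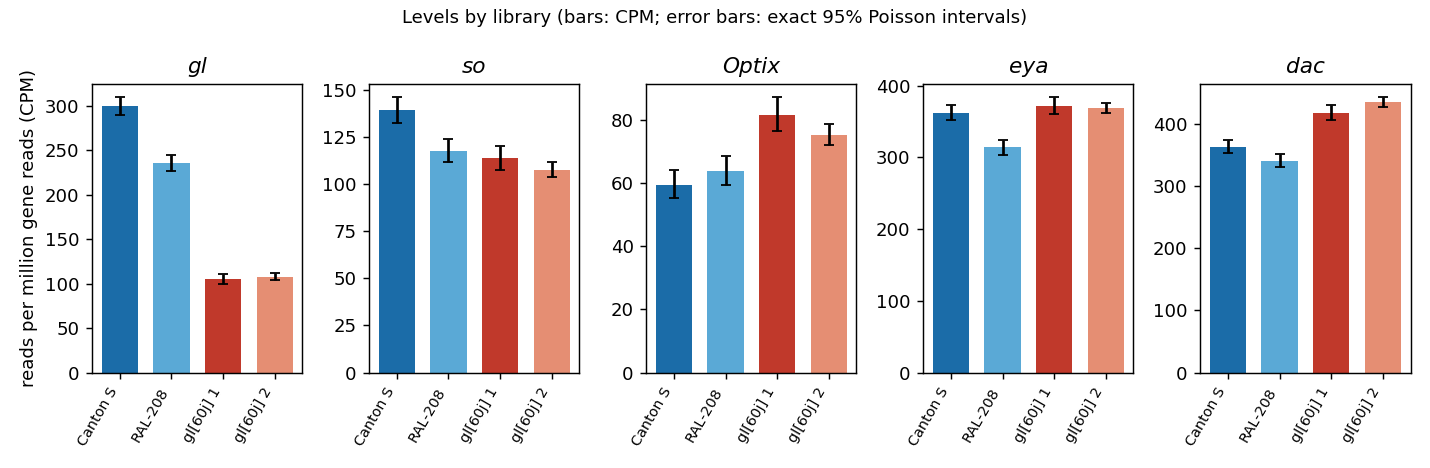
CPM, relative to all gene reads of a library, of gl, so, Optix, eya and dac in each of the 4 libraries, with 1 panel per gene and its own axis from 0; error bars are exact 95% Poisson intervals and cover counting error only. The mutant bars of gl stand at 105 and 108 CPM against 299 and 235 in wild type, those of Optix and dac stand above both wild types, and those of so and eya stand close to 1 wild type.

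Counted over the genes, edgeR with summed mutant libraries called 0 of 5 at an adjusted p under 0.05. It called 0% of all 9059 tested genes in either direction. With unadjusted p-values under 0.05 the same fit had gl lower, beside 10.2% of all genes, and Optix and dac higher, beside 6.44% of all genes. On the same columns limma-voom called 0 of 5 (0% of all genes in either direction). DESeq2 called gl lower, where it called 4.28% of all genes, and 0 of 5 higher, where it called 1.68%. When both mutant libraries enter as separate samples, a fit whose p-values are too small because part of its spread is technical, edgeR called gl lower (adjusted p 0.0143, 11.3% of all genes called lower) and Optix and dac higher (adjusted p 0.0277 and 0.0373, 8.05% of all genes called higher), while so (0.339) and eya (0.187) were not called. By CPM alone, both mutant libraries lay below both wild types for gl and so, as for 41% of all genes, and above both for Optix, eya and dac, as for 26.2%. These CPM are without TMM scaling. The median log2 fold change over all genes tested was -0.073 with library totals and 0.0014 with TMM scaling. For so the gap was narrow (-3.43%) and was not checked with TMM scaling. Among all tested genes, 9.59% had a lower log2 fold change than gl and 32.6% a lower one than so, while 12.4% lay above Optix, 14.2% above dac and 26.0% above eya.

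**Figure D2:**
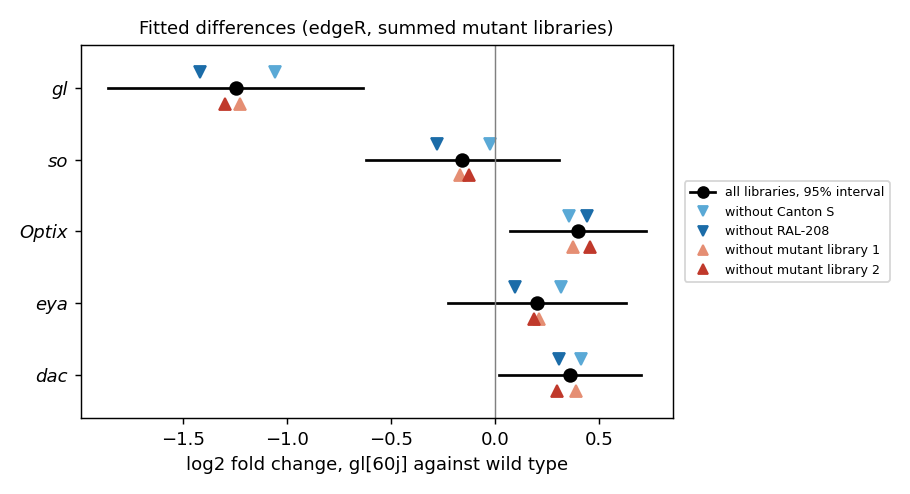
Fitted log2 fold changes of the 5 genes, gl[60j] against wild type, from edgeR with summed mutant libraries; black points and lines give the estimate with its 95% interval, and triangles give the estimate without 1 library. The interval of gl runs from -1.86 to -0.63, those of so and eya include 0, and leaving out Canton S or RAL-208 moved gl, so and eya more than leaving out a mutant library.

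The spread within each group was measured gene by gene. Canton S exceeded RAL-208 by a CPM ratio of 1.27 for gl (exact 95% interval 1.21 to 1.34), 1.18 for so (1.1 to 1.27), 1.15 for eya (1.11 to 1.21) and 1.07 for dac (1.02 to 1.11), intervals that cover counting error only. The strains thus differed beyond counting error for gl, so, eya and dac, and the share of all genes that do so was not computed. Over all genes tested, the median absolute log2 ratio of the strains was 0.18. For so and eya the strains differed by as much as or more than the genotypes, whose mean CPM stood at 0.862-fold and 1.096-fold of wild type. Larger gaps between the strains were found in 28.6% of tested genes than for gl and in 70.5% than for dac. The mutant libraries were closer to each other than the strains for gl, so, eya and dac, but not for Optix. The ratio of the second to the first was 1.03 for gl, 0.947 for so, 0.922 for Optix, 0.991 for eya and 1.04 for dac. In an exact two-sided binomial test, which compares these libraries and not conditions, the lowest p was 0.0205 for dac (0.102 adjusted over the 5 genes) and that of Optix was 0.0417 (0.104 adjusted). Over all tested genes 13.2% had such a p under 0.05, so that these technical replicates differ by more than counting error.

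Ratios between genes within 1 library do not depend on how libraries are scaled. For each read of so there were 2.15 reads of gl in Canton S and 1.999 in RAL-208, against 0.924 and 1.002 in the mutant libraries. For each read of eya there were 0.826 and 0.750 reads of gl in the wild types, against 0.282 and 0.292 for the mutant libraries. The ratio of gl to its partner was thus 2.16-fold lower in the mutant against so, 2.74-fold against eya, 3.03-fold against dac and 3.21-fold against Optix.

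Among the selector genes the proportions differed too. The reads of so per read of eya, the pair whose proteins act as a complex, stood at 0.384 and 0.375 in the wild types and at 0.305 and 0.292 in the mutant libraries. The counting intervals of wild type and mutant do not touch (lowest wild-type bound 0.352, highest mutant bound 0.325), and here the strains were close to each other. Separation is not particular to this pair. By the ratios alone, wild type and mutant did not overlap for 9 of the 10 pairs of the 5 genes. Pairs of gl or so with Optix, eya or dac had to separate. By CPM, both mutant libraries lay below both wild types for gl and so, and above them for the other genes. The share without overlap was not computed over all gene pairs. For Optix per eya the gap was narrow (0.164 and 0.203 against 0.219 and 0.204). The reads of Optix per read of so, which sets the Six-family genes side by side, were 0.428 and 0.542 for the wild types, against 0.718 and 0.699 for the mutant, 1.46-fold higher by the means. For dac per so the ratios were 2.61 and 2.89 against 3.67 and 4.03, 1.40-fold higher. For dac per eya they were 1.002 and 1.08 against 1.12 and 1.18, and the interval of RAL-208 (1.04 to 1.13) overlaps that of the first mutant library (1.07 to 1.17). For Optix per dac they were 0.164 and 0.187 against 0.196 and 0.173, and the groups overlap. With 1 mutant sample no test of these ratios across samples was made, and each gene enters several of them.

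**Figure D3:**
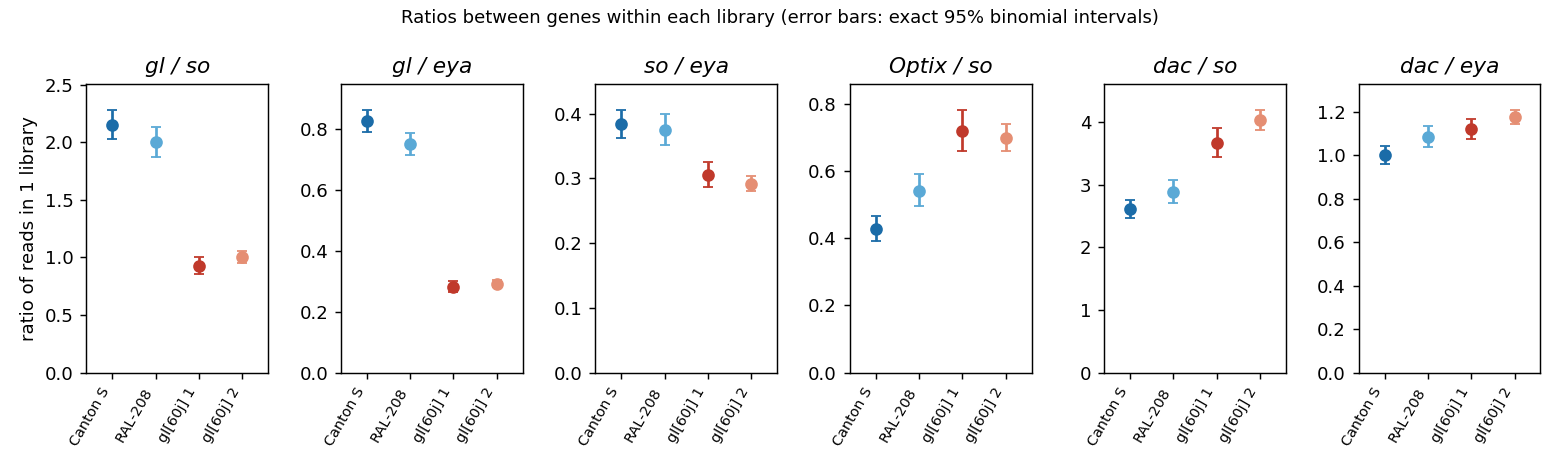
Ratios of reads between pairs of the genes within each of the 4 libraries, with exact 95% binomial intervals that cover counting error only and axes that start at 0. The ratio of so to eya falls in a narrow range in the wild types (0.384 and 0.375) and in a separate range in the mutant (0.305 and 0.292), while Optix per so and dac per so lie higher in both mutant libraries.

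Levels of different genes can be compared only per length. Divided by the length of all annotated exons, eya had the highest level in every library, from 85.1 CPM per kilobase in RAL-208 to 101 in the first mutant library. In the wild types gl followed (88.1 and 69.2 CPM per kilobase), next to dac (72.9 and 68.3); these values are close for RAL-208. Then came so (49.9 and 42.3) and Optix (21.2 and 22.8). In the mutant, dac was next after eya (83.7 and 87.1 CPM per kilobase), followed by so (40.8 and 38.6), gl (30.9 and 31.7) and Optix (29.2 and 26.9). The transcript of gl thus stood ahead of dac and so in the wild types and behind both in the mutant, while the other genes kept their order among themselves. With coding length in place of exon length, a choice made after seeing the data, gl was last in the first mutant library (51.5 against 55.3 CPM per kilobase of coding length for Optix) and ahead of Optix in the second (52.9 against 51.0). Exon lengths are from the annotation of assembly BDGP6, which is not the build named for these data.

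The partners of these proteins were read as a group of 7 genes, of which 6 were tested. Their median log2 fold change was 0.066, against 0.0014 over all genes tested, and it was -0.0087 with library totals in place of TMM scaling and -0.0085 without Canton S, so its sign depends on these choices. edgeR with summed mutant libraries called 0 of 6, and the fit of 4 libraries 1 lower and 1 higher, where it called 11.3% and 8.05% of all genes. The higher one is Sobp, which encodes a protein that binds So, with 27.2 and 19.7 CPM for the wild types and 56.4 and 56.1 CPM for the mutant libraries, 2.40-fold higher (log2 fold change 1.33, SE 0.26, adjusted p 0.213 in edgeR with summed mutant libraries and 0.0183 in the fit of 4 libraries). The lower one is Abl, whose kinase phosphorylates Eya, at 296 and 265 CPM against 170 and 169, 1.65-fold lower (log2 fold change -0.66, SE 0.14, adjusted p 0.217 and 0.0154). The kinase gene nmo, whose product also phosphorylates Eya, was read at 196 and 231 CPM against 242 and 241. Snoo, a relative of dac, was read at 111 and 146 CPM against 137 and 137, and the corepressor gene CtBP at 596 and 573 CPM against 530 and 542. DESeq2 also called Sobp (adjusted p 0.0145) and Abl (adjusted p 0.0119).

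Reported targets of So and Eya gave a median of 0.084 over 6 genes (0.0068 without Canton S and 0.18 without RAL-208). Of these, edgeR with summed mutant libraries called 0 and the fit of 4 libraries called lz lower and ey higher, 1 of 6 in each direction, where it called 11.3% and 8.05% of all genes. The Runx factor gene lz, whose eye enhancer is bound by So and by Glass, was read at 79.0 and 70.1 CPM against 21.96 and 20.7, 3.49-fold lower. The Pax gene ey was read at 99.6 and 99.4 CPM against 120 and 126, 1.24-fold higher. The proneural gene ato was read at 77.0 and 64.7 CPM against 61.1 and 60.5, and its log2 value of -0.15 (SE 0.16) was close to that of so. The TGF-beta ligand gene dpp was read at 80.9 and 91.1 CPM against 101 and 96.3. The mitotic phosphatase gene stg was read at 359 and 406 CPM against 380 and 374, and its log2 value changed sign from 0.047 to -0.028 with library totals in place of TMM scaling.

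The other genes of the retinal determination network had a median of 0.43 over 9 genes, with 7 above 0 and 2 below, where 4551 of the 9059 tested genes lay above 0. edgeR with summed mutant libraries called 0 of them, while the fit of 4 libraries called 5 higher (8.05% of all genes) and 0 lower (11.3%) and DESeq2 called 1 higher (1.68%). Optix and dac, at 0.40 and 0.36, lay close to that median, and eya at 0.20 and so at -0.16 lay below it. The nuclear factor genes dan (log2 fold change 0.74, SE 0.13) and danr (0.65, SE 0.14) had the largest values, and both are also among the 7 antennal markers. The Pax genes toy (0.48) and toe followed, of which toe was read at 33.2 and 29.0 CPM against 42.1 and 39.0 (log2 fold change 0.43, SE 0.18). The most abundant gene, hth, which encodes a homeodomain protein of progenitor cells, had 0.23.

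Signals of the furrow had a median of 0.14 over 8 tested genes of 12 listed (0.084 without Canton S and 0.22 without RAL-208). edgeR with summed mutant libraries called 0 and the fit of 4 libraries called 2 higher, N (adjusted p 0.0384) and ptc (adjusted p 0.0431), and 0 lower, where it called 8.05% and 11.3% of all genes. By mean CPM N was 1.20-fold and ptc 1.13-fold of wild type. The ecdysone receptor gene EcR had the largest value of the group, at 214 and 263 CPM against 171 and 159 (log2 fold change -0.48, SE 0.17). The Hedgehog pathway factor gene ci was read at 817 and 948 CPM against 926 and 912, and the groups overlap.

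All 4 tested of the reported Glass targets had lower CPM in the mutant libraries, with a median log2 fold change of -2.12, where gl itself stood at -1.25. edgeR with summed mutant libraries called 0 of 4, and the fit of 4 libraries called 4 lower, where it called 11.3% of all genes lower and 41% of all genes had both mutant libraries below both wild types by CPM. Besides lz these were sev, the receptor tyrosine kinase of the R7 cell (-0.44, SE 0.16), and the homeobox genes hbn (-2.50, SE 0.43) and Pph13. Pph13 had 3.30 and 1.86 CPM for the wild types and no reads (0) in either mutant library. It was at least 33.0-fold lower, with a floor of 3 reads over both mutant libraries, and with it at that bound the median stayed at -2.12. The rhodopsin gene ninaE had 2, 1, 1 and 2 reads and was not tested. The lower brain and nerve cord markers stand beside this group too, and their part in it was not tested.

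**Figure D4:**
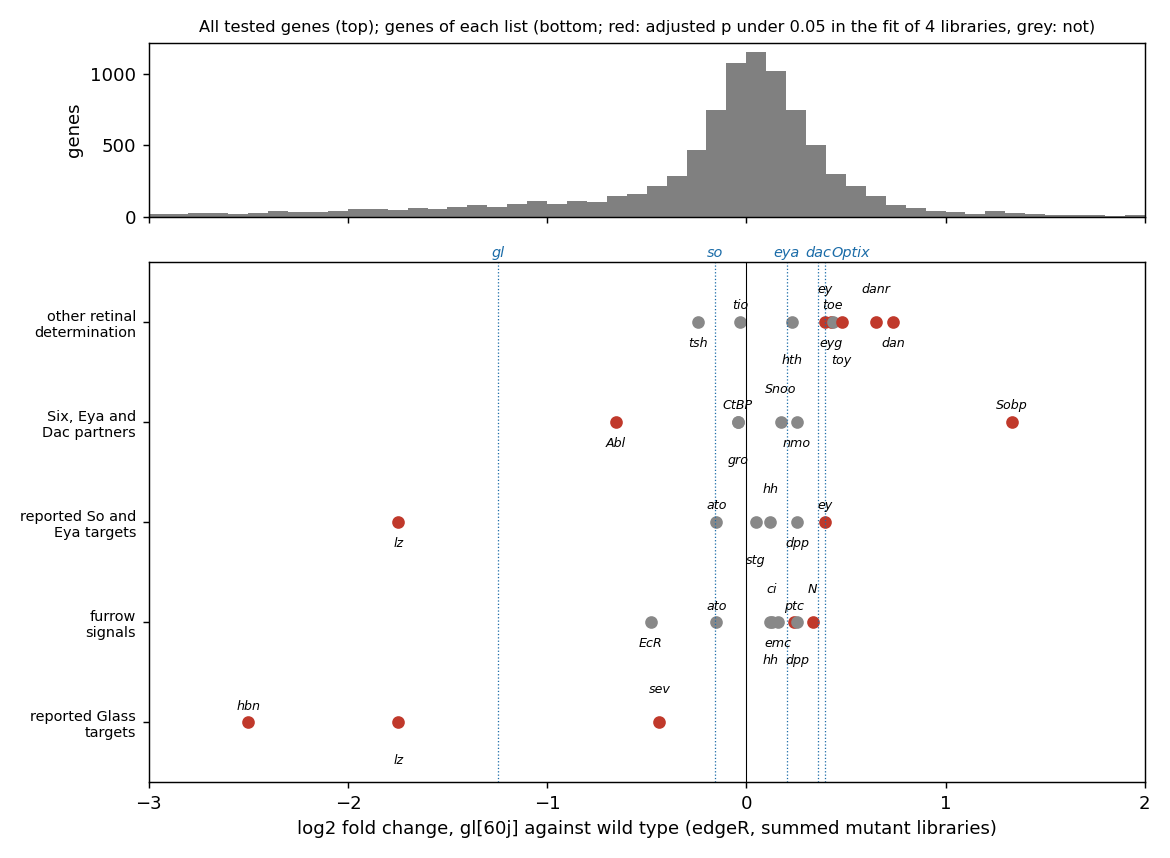
Histogram of the fitted log2 fold changes (gl[60j] against wild type) of the tested genes between -3 and 2 (top) and the genes of each list on the same axis (bottom); red points had an adjusted p under 0.05 in the fit of 4 libraries, grey points did not, and dotted lines mark gl, so, eya, dac and Optix. Pph13 lies outside the axis. The network genes lie mostly to the right of 0, from -0.24 for tsh to 0.74 for dan, and the Glass targets to the left.

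The genes next to each selector gene were read as well, taken from the gene order of the BDGP6 annotation among genes of the count tables. Nup43 and CG7675 flank gl. CG7675 had 132 and 153 CPM for the wild types, and 239 and 240.2 CPM for the mutant libraries (log2 fold change 0.83, SE 0.14, adjusted p 0.209 in edgeR with summed mutant libraries and 0.0143 in the fit of 4 libraries), the direction opposite to gl, while Nup43 stood at 1.07-fold of wild type. For so, the following gene CG11123 was at 1.004-fold of wild type, and CG11145 overlaps so on the other strand at 0.266 to 1.44 CPM, where so had 108 CPM or more. Optix is flanked by CG14762, at 43.8 and 51.1 CPM against 11.8 and 12.2 (log2 fold change -1.90, SE 0.20, adjusted p 0.208 and 0.00875 in the same fits), and by CG12769, which was under 2 CPM in every library. The neighbour CG31637 of eya was at 0.906-fold of wild type and IFT52 was under 2 CPM in every library. Beside dac, Idgf3 was read at 54.0 and 50.0 CPM against 31.2 and 30.7 (log2 fold change -0.68, SE 0.14, adjusted p 0.217 and 0.0153), and Nepl8 was under 1 CPM in every library. The fitted differences of CG7675, CG14762 and Idgf3 are opposite in sign to those of gl, Optix and dac beside them. Those of CG11145, CG12769 and IFT52, all under 2 CPM, have the sign of so, Optix and eya in the fit with summed mutant libraries.

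Genes with the most similar profile were sought among 6336 others with a symbol and a mean of at least 10 CPM, by the Euclidean distance of log2 CPM, centred on each gene's mean, over the 4 libraries. For gl only Gbp2 (25.8 and 19.7 CPM against 8.77 and 8.65) lay within a distance of 0.1, and Ugt36A1 (0.12) and side-VI (0.13) came next. Within the same distance lay 90 genes for so, 57 for Optix, 341 for eya and 201 for dac. A fixed distance holds fewer genes for a large change, as in gl, than for a small one, which more genes share. Among the closest were TBC1D5, Sox102F and CAH7 for so, ND-15, Saysd1 and msd1 for Optix, Jwa, CG12206 and nmdyn-D7 for eya, and Tbca and Acadvl for dac. Distances over 4 libraries, of which 2 are technical replicates, describe these libraries alone.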

How the data were processed

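The authors deposited raw counts of reads for each FlyBase gene, in a separate table for every library. The submitters' processing notes list CASAVA 1.8, TopHat2 2.0, HTSeq and dm3 but no roles. How strands and ambiguous reads were counted, and with which annotation, is not given in the sources used here. Summary lines of the counter, between 23.3% and 25.6% of the counted total, were left out. Symbols came from the BDGP6 gene names (13746 of 14885 identifiers); no coordinates are given, since that build is not dm3.

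Counts of the mutant libraries were summed, and the 3 columns were tested with edgeR 4.0.16 (quasi-likelihood F test, R 4.3.3, TMM scaling, Benjamini-Hochberg adjustment over all genes), which leaves 1 residual degree of freedom from both wild types. The lone mutant sample is assumed to vary like them. filterByExpr on the 4 libraries (minimum count 10) left 9059 genes. DESeq2 1.42.0, limma-voom (limma 3.58.1) and edgeR on 4 separate libraries served as alternatives. Folds are ratios of mean CPM without TMM, log2 fold changes are fitted with it. Intervals of counts are exact, at 95%, and cover counting error only, since reads are not independent molecules.

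The genes and the 16 lists (106 entries, 95 matched by symbol, the others not analysed here) were chosen with earlier results of these data known. Some genes, ey, ato, dpp, lz, sev, dan and danr among them, stand in several lists, so medians and counts of the lists are not independent. From the lists of network genes, partners, So and Eya targets, furrow signals and Glass targets the text names the 4 genes with the largest fitted change and the most abundant other gene (all genes tested in lists of up to 5). From lists of other tissues it names the 2 most abundant genes (Akh, moody and gcm were named after their values were seen), and, for each selector gene, its neighbours and the 3 genes of nearest profile, of which 1 is not reported here.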

Additional observations from a re-analysis of the deposited data

How the results depend on the processing

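The edgeR fit with summed mutant libraries called 0 genes lower and 0 higher, as did the fits with other scaling, without a filter, with limma-voom and without either mutant library. Entering 4 separate libraries gave 1025 lower and 729 higher, and DESeq2 388 and 152. Separate libraries without Canton S gave 2678 and 2671, and without RAL-208 2195 and 2111; these fits rest on the technical pair of the mutant alone. In them the log2 fold changes that passed were, without Canton S and without RAL-208, -1.07 and -1.42 for gl, 0.36 and 0.45 for Optix, and 0.40 and 0.29 for dac; eya passed only without Canton S (0.31) and so only without RAL-208 (-0.27). With 4 libraries gl passed at -1.26, Optix at 0.41 and dac at 0.34, and with DESeq2 gl at -1.25. Over all alternatives the values ran from -1.42 to -1.06 for gl (adjusted p 6.39e-08 to 0.428), -0.28 to -0.025 for so (0.00135 to 0.999), 0.32 to 0.46 for Optix (0.00047 to 0.647), 0.094 to 0.32 for eya (0.000187 to 0.900) and 0.29 to 0.41 for dac (0.000144 to 0.428), without a change of sign in any of the 5 genes. Without Canton S or RAL-208 the summed design has 1 column per genotype and gives values without a test. No paired analysis was possible because the wild-type labels carry no replicate number (theirs here follow accession order) and the mutant pair is technical.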

Other observations

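CG1701, the annotated gene before so, was read only in the wild-type strain RAL-208. It had 253 reads there, or 21.4 CPM, and 0 reads in Canton S and in both mutant libraries. Against a floor of 3 reads this is at least 86.6-fold higher than in Canton S and at least 273.9-fold higher than in both mutant libraries summed. The levels of so in the same libraries (139, 118, 114 and 108 CPM) show no matching step. Among markers of eye cells, the homeobox gene ro of the photoreceptor pairs had 11.3 and 12.5 CPM for the wild types and 20.4 and 21.1 CPM for the mutant libraries (edgeR adjusted p 0.249 with summed mutant libraries and 0.0216 in the fit of 4 libraries), whereas sens, the zinc finger gene of the R8 founder cell, was read at 25.7 and 21.7 CPM against 24.2 and 23.8. Both were named after their values were seen.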
